A study of Mus musculus with 10 samples.

Results

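The regions described here are stretches of the mouse autosomes that carried much H3K27me3 and little H3K4me3 in undifferentiated XT67E1 embryonic stem (ES) cells. They were selected on measured values: 10 kb bins of the mm9 genome on chromosomes 1 to 19, cut from the first base, with 100 or more reads in the H3K27me3 library of undifferentiated XT67E1 cells and 10 or fewer reads in the H3K4me3 library of the same cells. The rule found 1776 bins among 237573 autosomal bins that held a read, or 0.748% of them. They were 39.1% of the 4540 autosomal bins with 100 or more H3K27me3 reads. Of the other H3K27me3-rich bins, 234 had 30 or more H3K4me3 reads and are called bins rich in both marks, and 2530 had 11 to 29 H3K4me3 reads.

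H3K27me3 is trimethylation of lysine 27 of histone H3. It is laid down by Polycomb repressive complex 2, which spreads it over domains that often cover whole gene clusters, and it is a mark of genes that are kept silent. H3K4me3, trimethylation of lysine 4 of the same histone, sits in narrow peaks at the starts of active genes and of CpG-rich genes in general. In ES cells many CpG-rich starts of developmental genes, the Hox clusters among them, carry both marks and are called bivalent. A limit on H3K4me3 reads per 10 kb bin does not place a bin outside such clusters or starts, and no gene starts were located here.

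The study profiled these marks by chromatin immunoprecipitation and sequencing (ChIP-seq) in ES cell lines grown on gelatin with serum and LIF, the cytokine that keeps mouse ES cells undifferentiated. XT67E1, a female line of the strain C3H/Pgk*129, was profiled for both marks after 4 days in all-trans retinoic acid (atRA), a differentiation signal, as 10-day embryoid bodies (EBs), which are aggregates that differentiate without LIF, and undifferentiated. LF2, a female line, and E14, a male line, both of the strain 129/Ola, were profiled for H3K27me3 as 10-day EBs and undifferentiated. Each line is a single line, so line and sex cannot be told apart between LF2 and E14, which share a strain. Between XT67E1 and LF2, line and strain cannot be told apart, and between XT67E1 and E14, line, strain and sex cannot.

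There were 10 libraries, 1 for each line, condition and mark. Each of the 3 H3K4me3 libraries held 2252395 reads, each of the 3 XT67E1 H3K27me3 libraries 8380007 and each of the 4 libraries of LF2 and E14 4531733, so that depth was equal within a comparison. With 1 library per group, a ratio of 2 libraries has no replicate check, and all intervals cover counting error only. No expression was measured, and bins are given by mm9 position, counted from 1, with no gene assigned to any of them.

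Every other H3K27me3 library held more reads in these bins than in an average autosomal bin. The share of autosomal reads was 3.26% after atRA (Wilson 95% interval 3.25 to 3.27%) and 2.63% in EBs (2.62 to 2.64%) in XT67E1, against 2.91% in the undifferentiated library that chose the bins. In LF2 it was 2.75% in EBs (2.74 to 2.77%) and 3.63% in undifferentiated cells (3.62 to 3.65%). In E14 it was 3.41% in EBs (3.39 to 3.42%) and 3.00% in undifferentiated cells (2.98 to 3.02%). The mean over the bins was thereby 3.51 to 4.86 times the mean over all autosomal bins in the 6 libraries that the rule did not use.

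Per bin, the reads after atRA ran from 44 over a median of 134 to 480, and in XT67E1 EBs from 43 over 105 to 368, against 100, 118 and 331 in undifferentiated XT67E1 cells. LF2 had 16, 58 and 235 reads in EBs and 24, 80 and 286 in undifferentiated cells as its lowest, median and highest values. E14 had 10, 62 and 467 reads in EBs and 14, 58 and 401 in undifferentiated cells. The median over all autosomal bins was 27 reads after atRA and 29 in EBs of XT67E1, 15 in EBs and 14 in undifferentiated cells of LF2, and 15 in EBs and 16 in undifferentiated cells of E14. No bin was at or below that median in the XT67E1 and LF2 libraries, while 12 did in E14 EBs and 6 in undifferentiated E14 cells. The ranges of the libraries overlapped throughout.

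**Figure D1:**
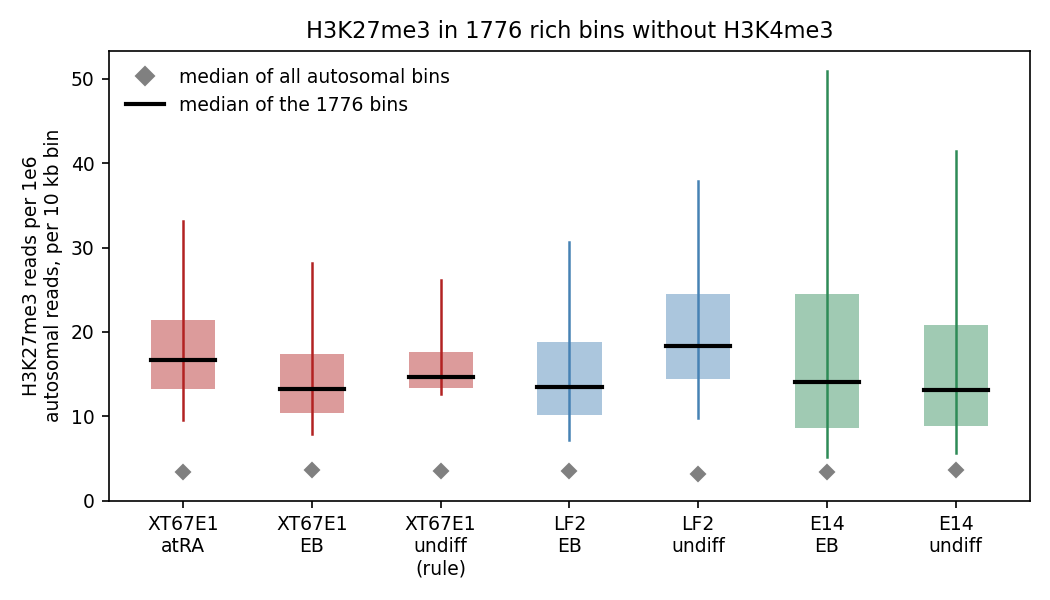
H3K27me3 level of the 1776 bins in each library, in RPM (reads per 1e6 autosomal reads) per 10 kb bin. Boxes span the quartiles, lines the 5th to 95th percentile over bins, black bars mark the medians (16.7 after atRA, 13.2 in EBs and 14.7 undifferentiated in XT67E1; 13.5 in EBs and 18.3 undifferentiated in LF2; 14 in EBs and 13.1 undifferentiated in E14), and grey diamonds mark the median of all autosomal bins; the undifferentiated XT67E1 library has a lower edge set by the rule.

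Retention was counted by rank, because the libraries differ in depth and in how strongly reads gather in rich bins. A bin was called present in a library when its reads reached the smallest number that no more autosomal bins reached there than reached 100 reads in undifferentiated XT67E1. This minimum was 115 reads after atRA and 94 in EBs of XT67E1, 56 in EBs and 71 in undifferentiated cells of LF2, and 61 in EBs and 56 in undifferentiated cells of E14. By its construction it was reached by nearly the same share of all autosomal bins everywhere. That share was 1.87% after atRA and 1.87% in EBs of XT67E1, 1.85% in EBs and 1.89% in undifferentiated cells of LF2, and 1.86% in EBs and 1.89% in undifferentiated cells of E14.

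In XT67E1, 1201 of the 1776 bins (67.6%) were present after atRA and 1100 (61.9%) in EBs. Both differentiated states kept 961 bins, or 54.1%. A further 240 were present after atRA and not in EBs, 139 in EBs and not after atRA, and 436 (24.5%) in neither. In LF2, 964 bins (54.3%) were present in EBs and 1152 (64.9%) in undifferentiated cells. In E14, 910 (51.2%) were present in EBs and 950 (53.5%) in undifferentiated cells. The bins rich in both marks were present more often than these in each of the 6 libraries, at 77.4% after atRA and 82.9% in EBs of XT67E1, 75.2% in EBs and 83.8% in undifferentiated cells of LF2, and 69.2% in EBs and 84.2% in undifferentiated cells of E14. So were the 2530 rich bins with 11 to 29 H3K4me3 reads, at 75.9% after atRA and 75.8% in EBs of XT67E1. Their shares were 67.7% in EBs and 74.3% in undifferentiated cells of LF2, and 58.1% and 63.2% in those of E14. These differences were not tested. The bins rich in both marks also had a higher median level than the 1776 bins in undifferentiated XT67E1, at 16.5 against 14.7 reads per 1e6 autosomal reads (RPM).

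All 6 other libraries held 594 bins (33.4%), and none of the 6 held 265 bins (14.9%). The 594 shared bins had a median of 150 reads in undifferentiated XT67E1, and the 265 had a median of 105 and at most 151. The 3 EB libraries together kept 731 bins (41.2%), and 524 (29.5%) were present in none of the EB libraries. Undifferentiated LF2 and E14 cells shared 830 bins, with 322 in LF2 alone, 120 in E14 alone and 504 in neither. Without chromosome 8, which is described below, these counts were 818, 283, 115 and 378.

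Retention by strength of the signal is given as a description. The strength is the count the rule used and the minimum for presence is its equivalent by rank, so bins close to 100 reads must drop below it more often than strong ones by counting error alone. Among the 915 bins with 100 to 119 reads there, 47.8% were present after atRA and 38.7% in XT67E1 EBs, 33.2% in EBs and 43.9% in undifferentiated cells of LF2, and 33.0% in EBs and 33.4% in undifferentiated cells of E14. Among the 109 bins with 200 or more reads, 99.1% were present after atRA and 100% in XT67E1 EBs, 99.1% in EBs and 100% in undifferentiated cells of LF2, and 98.2% in EBs and 99.1% in undifferentiated cells of E14. The weakest bins were close to the edge of the rule. The 309 bins with 100 to 104 reads had medians of 105 reads after atRA and 81 in XT67E1 EBs, and the 407 bins just outside it, with 95 to 99 reads and as little H3K4me3, had 98 and 76. At the other edge, 398 bins had exactly 10 H3K4me3 reads and 362 rich bins had 11.

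**Figure D2:**
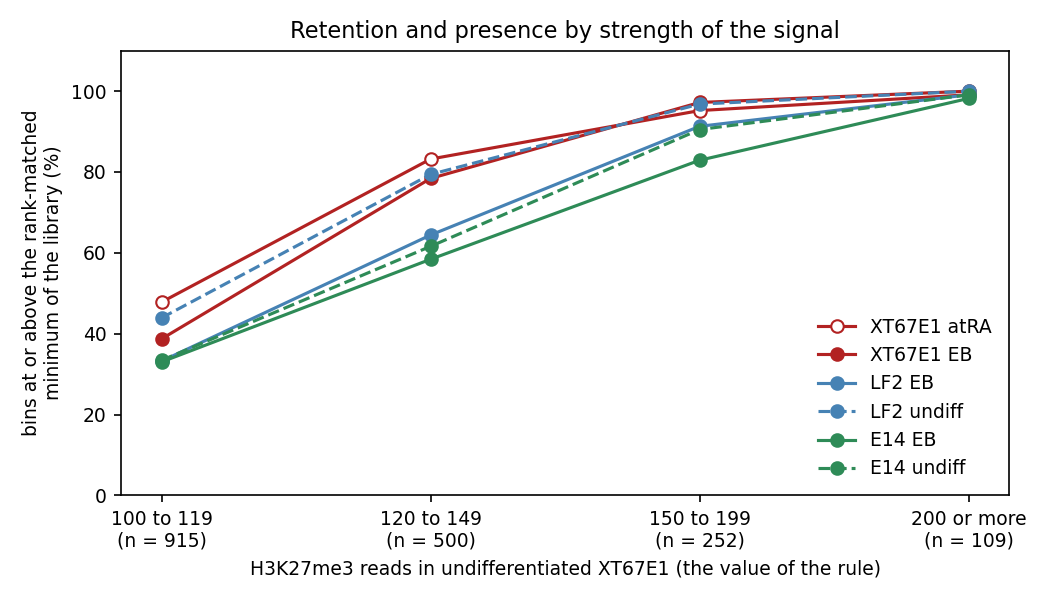
Share of bins present in each of the 6 libraries the rule did not use, in percent, for 4 classes of H3K27me3 reads in undifferentiated XT67E1. Points run from 33.0 to 47.8% in the weakest class and from 98.2 to 100% in the strongest.

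The bins with most reads held high counts in all lines. The bin on chromosome 11 from 96150001 to 96160000 had 283 H3K27me3 reads after atRA, 314 in EBs and 331 in undifferentiated cells of XT67E1, 188 in EBs and 219 in undifferentiated cells of LF2, and 326 in EBs and 289 in undifferentiated cells of E14. Next came chromosome 10, where the bin from 42300001 to 42310000 had 392, 352 and 320 reads in XT67E1 after atRA, in EBs and in undifferentiated cells. Its LF2 reads were 181 in EBs and 219 in undifferentiated cells, and its E14 reads 340 in EBs and 324 in undifferentiated cells. The highest count in the XT67E1 libraries belonged to the bin on chromosome 5 from 35730001 to 35740000, with 480 reads after atRA, 368 in EBs and 317 in undifferentiated cells. That bin also had the highest E14 values, 467 in EBs and 401 in undifferentiated cells. All 10 bins with most reads in undifferentiated XT67E1 held at least 261 reads both after atRA and in EBs of that line. At the other end, the bin on chromosome 16 from 87720001 to 87730000 had 59 reads after atRA, 51 in EBs and 102 in undifferentiated XT67E1 cells, 21 in EBs and 25 in undifferentiated LF2 cells, and 13 in EBs and 15 in undifferentiated E14 cells. Its E14 values lie at or under the median of all autosomal bins in E14. The other 4 bins with the fewest reads in undifferentiated LF2 and E14 cells are all on chromosome 8.

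The bins were not spread evenly over chromosomes. Their number per 1000 autosomal bins ran from 3.79 on chromosome 16 to 12.3 on chromosome 11 and 14.6 on chromosome 8. Chromosome 8 held 182 of them, or 10.2%. Over the whole of chromosome 8, mean H3K27me3 reads per bin were 1.54 times the autosomal mean after atRA, 1.5 times in EBs and 1.52 times in undifferentiated cells of XT67E1, 1.41 times in EBs and 1.25 times in undifferentiated cells of LF2, and 1.02 times in EBs and 1.00 times in undifferentiated cells of E14. Of the 182 bins, 8.79% were present in E14 EBs and 9.34% in undifferentiated E14 cells, against 56.1% and 58.5% of the 1594 bins on other autosomes. The LF2 shares on chromosome 8 were 40.7% in EBs and 28.0% in undifferentiated cells, against 55.8% and 69.1% on other autosomes. The part of this chromosome-wide difference in those counts was not tested, and the counts and medians of LF2 over E14 are given with and without chromosome 8.

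The H3K27me3 of the bins differed between the atRA and EB libraries of XT67E1. Each state has 1 library, at 4 days for atRA and 10 days for EBs, so treatment, time and library cannot be told apart. Neither the atRA nor the EB library was used by the rule. The log2 ratio of atRA over EBs, on reads per autosomal read with 1 read added to each count, had a median of 0.34 over the 1776 bins and was above 0 in 1526 of them (85.9%). Its median was -0.06 over all autosomal bins, of which 44.3% were above 0, and 0.21 over the bins rich in both marks. A bin was called different by size when the ratio was 2-fold or more, its exact conditional binomial 95% interval excluded 1 and the pair of libraries held at least 20 reads. By this rule 30 bins (1.69%) were higher after atRA, where 0.740% of all autosomal bins tested were, and 11 (0.619%) were lower, where 5.07% were. Under scaling to the reads of bins with low coverage, which moves all these ratios up by 0.23, the split became 107 higher and 2 lower. Under that scaling, here and below, no background over all autosomal bins was counted, as calls were made for the 1776 bins alone. These bins hold more reads than most, which narrows their intervals but also makes a 2-fold ratio by counting error alone rarer in them. The 5th to 95th percentile of the ratio was -0.23 to 0.81 over the 1776 bins and -1.01 to 0.67 over all autosomal bins tested. Here and below, the shares of calls are therefore not matched for depth, and a higher background share can come from bins with few reads.

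The largest ratio of atRA over EBs was on chromosome 11 from 90550001 to 90560000. This bin had 128 reads after atRA, 43 in EBs and 101 in undifferentiated XT67E1 cells, a log2 ratio of atRA over EBs of 1.54 (1.05 to 2.10). Chromosome 17 followed, from 34820001 to 34830000, with 140 reads after atRA and 58 in EBs, a log2 ratio of 1.25 (0.81 to 1.73). On chromosome 5, the bin from 116530001 to 116540000 had 161 reads after atRA and 67 in EBs, a log2 ratio of 1.24 (0.83 to 1.69). In each of these the EB value was the low one, below 94 reads, the minimum for presence there.

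The 11 bins lower after atRA than in EBs included 5 that lay in a pair of long rich stretches, on chromosome 6 from 52100001 to 52230000 and on chromosome 11 from 96120001 to 96250000. The bin on chromosome 11 from 96210001 to 96220000 had 78 H3K27me3 reads after atRA, 231 in EBs and 189 in undifferentiated XT67E1 cells, a log2 ratio of atRA over EBs of -1.57 (-1.97 to -1.20). Its H3K4me3 reads were 30 after atRA, 20 in EBs and 10 in undifferentiated cells. On chromosome 6, the bin from 52130001 to 52140000 had 93 H3K27me3 reads after atRA, 252 in EBs and 237 in undifferentiated cells, a log2 ratio of atRA over EBs of -1.44 (-1.81 to -1.10). Its neighbour from 52120001 to 52130000 had 141, 297 and 289 H3K27me3 reads and 39, 10 and 10 H3K4me3 reads in XT67E1 after atRA, in EBs and in undifferentiated cells. The atRA value was the low one in all 3. Outside the pair of stretches, the bin on chromosome 7 from 80530001 to 80540000 had 58 H3K27me3 reads after atRA, 130 in EBs and 122 in undifferentiated cells, with H3K4me3 at 38, 36 and 10 reads. H3K4me3 was called higher after atRA than in undifferentiated cells in 4 of the 11, and in 4.67% of all 1776 bins.

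Within those stretches the low atRA values lay side by side. On chromosome 11 the atRA library had 254 to 283 H3K27me3 reads per bin from 96130001 to 96170000, against 282 to 314 in EBs and 252 to 331 in undifferentiated cells. From 96170001 to 96250000 it had 55 to 148 reads per bin, against 108 to 277 in EBs and 118 to 283 in undifferentiated cells. On chromosome 6 the atRA library had 61 to 146 reads per bin from 52100001 to 52160000, against 217 to 297 in EBs and 179 to 289 in undifferentiated cells. From 52160001 to 52220000 it had 296 to 318 reads per bin, against 246 to 341 in EBs and 243 to 296 in undifferentiated cells. Each stretch was thus divided after atRA into a side with about its undifferentiated level and a side with less, while the EB library was high along both. An exception was the first bin on chromosome 11, from 96120001 to 96130000, with 88 reads after atRA, 193 in EBs and 113 in undifferentiated cells. The stretches were described in this way after their values had been seen, and bins of a stretch share a library and their surroundings.

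**Figure D3:**
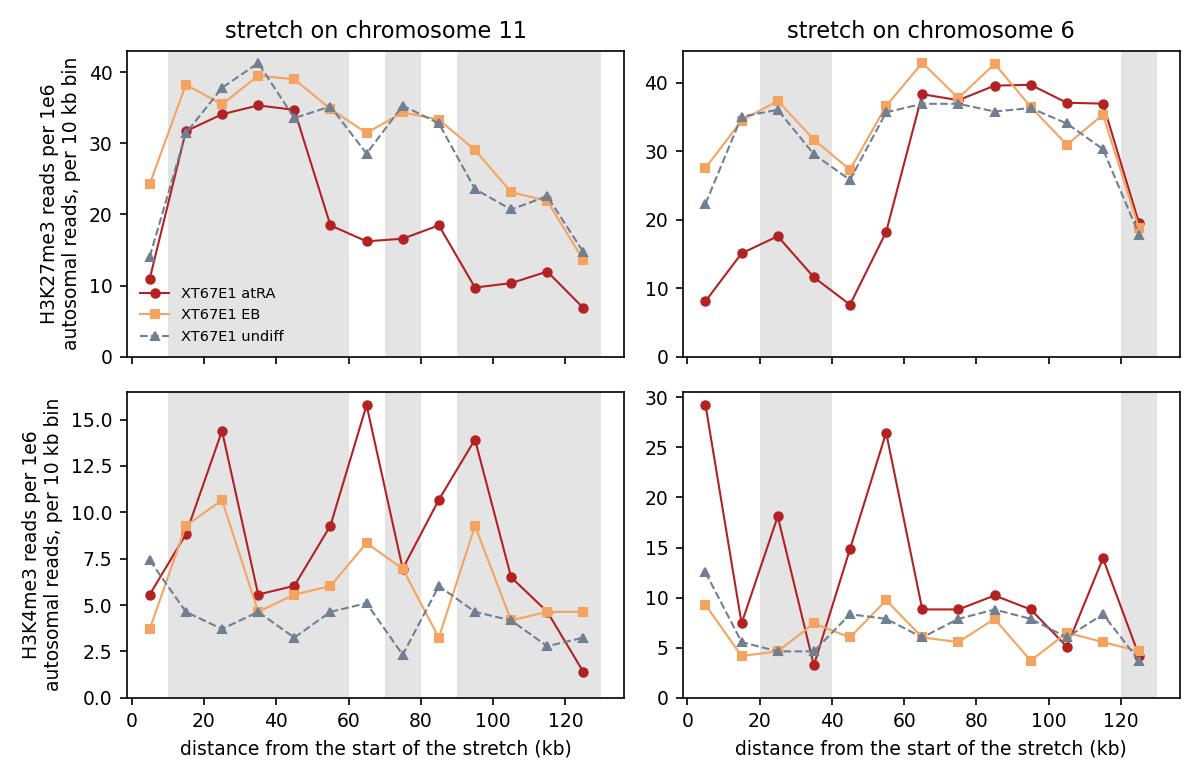
H3K27me3 (top) and H3K4me3 (bottom) in RPM per 10 kb bin along the pair of stretches on chromosomes 11 and 6, against distance from the start of the stretch in kb, for XT67E1 after atRA, in EBs and undifferentiated. Grey bands mark bins with 10 or fewer undifferentiated H3K4me3 reads; the atRA line lies below the other lines on one side of each stretch, and at the bin of chromosome 11 with 78 reads after atRA its H3K4me3 is at 30 reads.

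The ratios over the library that chose the bins are given as a description, since a bin picked for a high count tends to have a lower one in any other library. The median log2 ratio of atRA over undifferentiated XT67E1 cells was 0.15, with 3 bins called higher and 14 lower. Over all autosomal bins tested, 0.836% were called higher and 2.09% lower. With scaling to low-coverage bins, which shifts this ratio by 0.13, the split was 12 higher and 7 lower. The median log2 ratio of EBs over undifferentiated cells was -0.20, with 0 bins called higher and 24 lower, where 2.25% of all bins tested were called higher and 0.787% lower.

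In LF2 and E14 the bins had different medians of EBs over undifferentiated cells. In LF2 the median log2 ratio was -0.41 over the 1776 bins, 0.05 over all autosomal bins and -0.37 over the bins rich in both marks. In E14 it was 0.14, -0.00 and -0.06 over the same sets. In LF2 281 bins (15.8%) were above 0, where 55.8% of all autosomal bins tested were. In E14 1070 (60.2%) were, where 45.1% of all autosomal bins tested were. By size, 2 bins were higher and 161 (9.07%) lower in LF2 EBs, where 4.01% of all bins tested were called higher and 2.44% lower. With scaling to low-coverage bins, which shifts the LF2 ratio by -0.23, the LF2 split was 0 higher and 353 lower. In E14 EBs 49 (2.76%) were higher and 55 (3.10%) lower, where 2.04% of all bins tested were called higher and 2.94% lower, so that these shares were near the background. The same scaling gave an E14 split of 83 higher and 40 lower.

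Bin by bin, 860 bins were below 0 in LF2 and above 0 in E14, 635 below 0 in both, 210 above 0 in both and 71 above 0 in LF2 and below it in E14. This split was not made over all autosomal bins, so it does not set apart a shift of a whole library. By size, 18 (1.01%) were called lower in both lines, where 0.225% of all autosomal bins tested in both were, and 0 were called in opposite directions, where 0.111% were. The spread of reads over all autosomal bins moved with these medians. Its coefficient of variation was 0.820 in EBs and 0.983 in undifferentiated cells of LF2, 1.07 in EBs and 0.915 in undifferentiated cells of E14, and 0.877 after atRA against 0.722 in EBs of XT67E1. Its part in the medians was not tested. The libraries of undifferentiated LF2 and E14 cells also share their condition with the library that chose the bins.

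**Figure D4:**
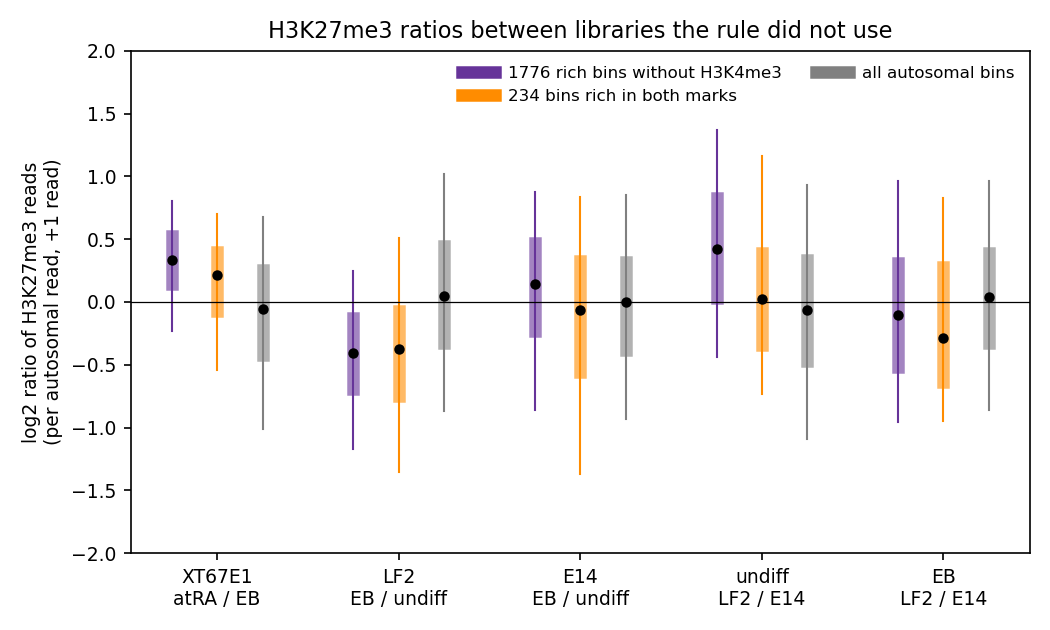
Log2 ratios of H3K27me3 between libraries the rule did not use (1 read added, per autosomal read), for the 1776 bins, the 234 bins rich in both marks and all autosomal bins. Thick bars span the quartiles, thin lines the 5th to 95th percentile over bins, and dots the medians, which for the 1776 bins are 0.34 for atRA over EBs in XT67E1, -0.41 and 0.14 for EBs over undifferentiated cells in LF2 and in E14, and 0.42 and -0.10 for LF2 over E14 in undifferentiated cells and in EBs.

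In LF2 EBs the lowest ratio was on chromosome 3. The bin from 122810001 to 122820000 had 21 reads in EBs and 85 in undifferentiated cells there, a log2 ratio of -1.95 (-2.76 to -1.30). This bin had 22 reads in EBs and 20 in undifferentiated cells of E14, where it was low in both. The highest ratio in E14 belonged to chromosome 14 from 68690001 to 68700000, where EBs had 90 reads and undifferentiated cells 25, a log2 ratio of 1.80 (1.19 to 2.55). It had 87 and 96 reads in EBs and undifferentiated cells of LF2. On chromosome 9, the bin from 91280001 to 91290000 had 136 reads in EBs and 42 in undifferentiated cells of E14, a log2 ratio of 1.67 (1.18 to 2.23), and 109 and 140 in EBs and undifferentiated cells of LF2. In the last 2 bins, undifferentiated E14 cells had the low value. The lowest ratio in E14 was that of chromosome 6 from 127420001 to 127430000, where EBs had 14 reads and undifferentiated cells 57, a log2 ratio of -1.95 (-2.99 to -1.17).

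The 2 lines were also fitted together in limma, with the line as a block, on 200510 bins of the autosomes and X with at least 40 reads. Over all bins, 157 (0.0783%) rose and 167 (0.0833%) fell in EBs at an adjusted p under 0.05 (Benjamini-Hochberg, two-sided test). Of the 1776 bins, 0 rose and 6 fell. At an unadjusted p under 0.05, 16 were higher and 175 lower, where 3.70% of all bins were higher and 3.44% lower. Without the line as a block, 0 rose and 0 fell, and with voom weights 0 rose and 6 fell. Their median log2 fold change was -0.13, against 0.03 over all bins, with a median standard error of 0.35. With 1 library per line and condition the fit has 1 residual degree of freedom, and the error is that pooled over bins.

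Among the bins that fell, the bin on chromosome 1 from 72990001 to 73000000 had the largest change. It had 20 reads in EBs and 77 in undifferentiated cells of LF2, and 22 in EBs and 54 in undifferentiated cells of E14, a limma log2 fold change of -1.57 (SE 0.33, adjusted p = 0.0038). On chromosome 11 the bin from 53910001 to 53920000 had 44 and 109 reads in EBs and undifferentiated cells of LF2 and 36 and 118 in those of E14, a limma log2 fold change of -1.48 (SE 0.35, adjusted p = 0.0252). On chromosome 5 the bin from 33820001 to 33830000 had 38 and 91 reads in EBs and undifferentiated cells of LF2 and 33 and 109 in those of E14, a limma log2 fold change of -1.46 (SE 0.34, adjusted p = 0.0225). In these 3 bins both EB values lay below both undifferentiated values. The same held on chromosome 11 from 87520001 to 87530000 and on chromosome 13 from 38280001 to 38290000, whose limma log2 fold changes were -1.41 and -1.34. The bin on chromosome 13 was also low in XT67E1, with 66 reads after atRA and 52 in EBs, against 143 in the undifferentiated cells that chose it. Its H3K4me3 was at 10 reads after atRA, 7 in EBs and 9 in undifferentiated cells.

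Between the lines, undifferentiated LF2 cells had more H3K27me3 in the bins than E14 cells. The median log2 ratio of LF2 over E14 was 0.42, against -0.07 over all autosomal bins and 0.02 over the bins rich in both marks. By size 289 bins (16.3%) were higher and 6 (0.338%) lower in LF2, where 3.52% of all bins tested were called higher and 4.49% lower. Without chromosome 8 the median was 0.38, with 220 higher and 6 lower. The median was 0.03 over the 361 bins with 150 or more reads in undifferentiated XT67E1. Scaling to low-coverage bins, which moves this ratio up by 0.33, gave 588 higher and 2 lower. In EBs the median was -0.10, with 78 bins (4.39%) higher and 76 (4.28%) lower in LF2, where 3.31% of all bins tested were called higher and 1.95% lower. Without chromosome 8 it was -0.19, with 26 higher and 76 lower. Over the 361 bins with 150 or more reads the EB median was -0.60, with 8 higher and 50 lower (13.9%).

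The highest ratio belonged to chromosome 8 from 112000001 to 112010000, at 80 reads in undifferentiated LF2 cells and 14 in undifferentiated E14 cells, a log2 ratio of LF2 over E14 of 2.45 (1.70 to 3.46). Off that chromosome, the bin on chromosome 7 from 149760001 to 149770000 had 118 and 27 reads in undifferentiated LF2 and E14 cells, a log2 ratio of 2.10 (1.53 to 2.80). On the same chromosome, the bin from 69590001 to 69600000 went the other way, with 37 reads in undifferentiated LF2 cells and 153 in undifferentiated E14 cells, a log2 ratio of -2.0 (-2.59 to -1.51). It had 46 reads in E14 EBs, so that undifferentiated E14 cells alone were high.

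The ratio between the undifferentiated lines was lower far from H3K4me3. Over the 858 bins more than 100 kb from an autosomal bin with 30 or more undifferentiated H3K4me3 reads, the median log2 ratio of LF2 over E14 was 0.26. It was 0.53 over the 387 bins at 60 to 100 kb, 0.59 over the 431 at 20 to 50 kb and 0.65 over the 100 that touched such a bin. Chromosome 8 held 84, 37, 44 and 17 of the bins in these classes. Without it the medians were 0.22 over 100 kb, 0.50 at 60 to 100 kb, 0.54 at 20 to 50 kb and 0.52 for touching bins. Over all autosomal bins tested they were -0.10, 0.06, 0.02 and -0.06 in the same order. The bins as a whole lay a median of 100 kb from such a bin, against 230 kb for all autosomal bins and 320 kb for all bins with 10 or fewer undifferentiated H3K4me3 reads. Within 100 kb were 51.7% of them, against 33.9% and 26.7% for the same 2 sets. They touched such a bin in 5.63% of cases, against 6.71% of all autosomal bins and 4.18% of the bins with little H3K4me3.

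Most of the bins stood alone by the rule. Joined where they touch, they made 1521 runs, of which 1315 were a single bin. There were 177 runs of 2 bins, 16 of 3, 8 of 4, 3 of 5 and 2 of 6, the last spanning 60 kb each. Runs of 2 or more held 461 bins (26.0%). When a rich neighbour was allowed any H3K4me3, 903 bins (50.8%) touched another bin with 100 or more H3K27me3 reads, 204 of them on both sides. A bin rich in both marks was touched by 32 of them (1.80%). These counts of neighbours were not made over all autosomal bins, so no background stands beside them.

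The profile around the 1315 lone bins was a broad hump. The mean H3K27me3 at 5 to 15 kb from the centre was 0.633 to 0.709 times that within the bin in the 7 libraries. At 40 to 50 kb it was still 1.47 to 1.74 times the mean of all autosomal bins. Within a bin the highest 1 kb held a median of 18.3 to 22.7% of the reads. Perfectly even spacing would give 10%, but the highest window lies above that by counting error alone, more so with few reads. The share at random spacing was not computed. No bin had 50% or more of its reads in 1 kb in the XT67E1 or LF2 libraries, while 3 did in E14 EBs and 12 in undifferentiated E14 cells.

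**Figure D5:**
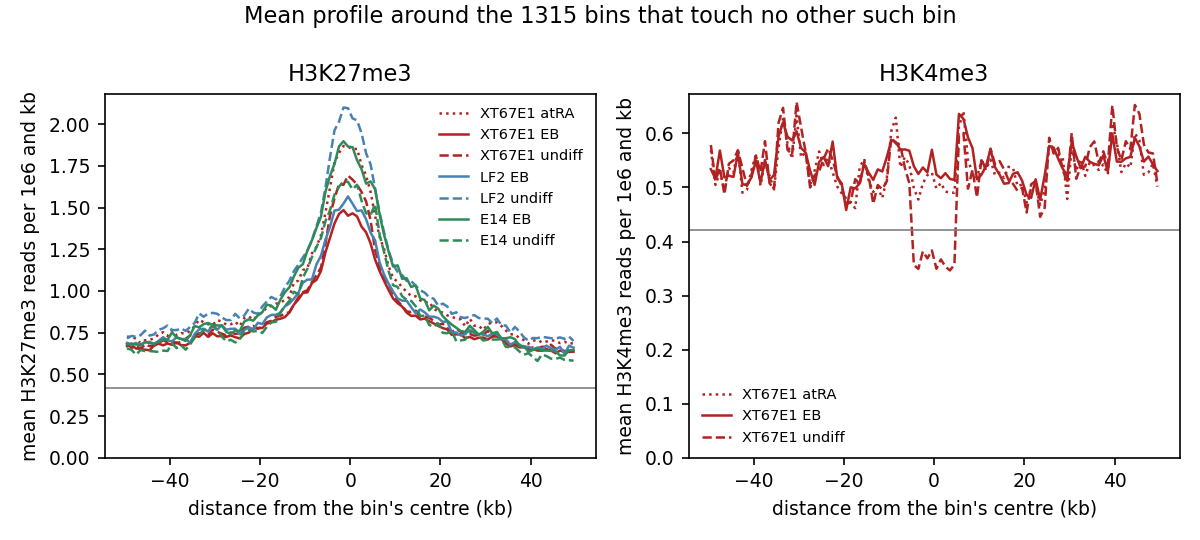
Mean H3K27me3 (left, all 7 libraries) and H3K4me3 (right, XT67E1) in reads per 1e6 autosomal reads and kb, against distance in kb from the centre of the 1315 bins that touch no other. The grey line is the mean of all autosomal bins; H3K27me3 within the bins is 3.34 to 4.65 times that mean, and H3K4me3 dips within the bins in the undifferentiated library that chose them, to 0.362, against 0.501 after atRA and 0.530 in EBs.

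The longest runs were on chromosomes 5, 7 and 11. The run of 6 bins on chromosome 7 from 150560001 to 150620000 held 971 H3K27me3 reads after atRA, 974 in EBs and 806 in undifferentiated cells of XT67E1. It held 542 reads in EBs and 691 in undifferentiated cells of LF2, and 368 in EBs and 483 in undifferentiated cells of E14. Its log2 ratio of EBs over undifferentiated cells was 0.29 (0.15 to 0.42) in XT67E1. The same ratio was -0.33 (-0.50 to -0.17) for LF2 and -0.39 (-0.59 to -0.20) for E14. A run of 5 bins nearby, from 150490001 to 150540000, had log2 ratios of 0.38 (0.22 to 0.53), -0.24 (-0.42 to -0.06) and -0.59 (-0.83 to -0.37) in the same order of lines. Both runs thus held more in EBs than in undifferentiated cells in XT67E1 and less in the other lines, where the XT67E1 value rests on the library that chose them.

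The run of 6 bins on chromosome 5 from 120680001 to 120740000 held 891 reads after atRA, 654 in EBs and 715 in undifferentiated cells of XT67E1. Its log2 ratio of atRA over EBs was 0.43 (0.29 to 0.58). The run of 5 bins on that chromosome from 33780001 to 33830000 held 903, 686 and 835 reads in XT67E1 after atRA, in EBs and in undifferentiated cells, and its log2 ratio of EBs over undifferentiated cells was -0.55 (-0.75 to -0.36) in LF2 and -0.79 (-1.0 to -0.58) in E14. It holds the bin of chromosome 5 named above among those that fell in the limma fit. The run of 5 bins on chromosome 11 from 96130001 to 96180000 held 1236, 1487 and 1437 reads in XT67E1 after atRA, in EBs and in undifferentiated cells. In E14 it held 1768 reads in EBs and 1422 in undifferentiated cells, a log2 ratio of 0.31 (0.21 to 0.41), while in LF2 it held 959 in EBs and 1164 in undifferentiated cells, a log2 ratio of -0.26 (-0.39 to -0.14).

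Taken without regard to H3K4me3, the rich bins formed 3145 stretches, of which 1457 held at least 1 of the 1776 bins and 987 held nothing else. The 987 accounted for 1115 of the bins, or 62.8%. The longest stretch, on chromosome 15 from 102730001 to 102880000, had 15 bins, 7 of them with 10 or fewer H3K4me3 reads. It held 3349 H3K27me3 reads after atRA, 3448 in EBs and 3337 in undifferentiated cells of XT67E1. A stretch of 13 bins on chromosome 2 from 74480001 to 74610000 held 5 of the bins and had 3486, 3115 and 2962 reads in the same order. These totals hide the end of the stretch on chromosome 15. In each of its last 5 bins, from 102830001 to 102880000, the atRA library had fewer reads than the other XT67E1 libraries, at 73 to 194 reads per bin, against 92 to 266 in EBs and 101 to 234 in undifferentiated cells. In the bin from 102860001 to 102870000 it had 97 reads, against 185 in EBs and 170 in undifferentiated cells. H3K4me3 over these stretches, in the same order, was 222, 194 and 194 reads on chromosome 15 and 186, 181 and 147 on chromosome 2. Chromosome 8 also held stretches of 13 bins, from 24140001 to 24270000 with 1 of the 1776 bins and from 123630001 to 123760000 with 4. They held 1841 and 2068 H3K27me3 reads in undifferentiated XT67E1 cells. In undifferentiated E14 cells they held 570 and 854, against 3088 on chromosome 15 and 2845 on chromosome 2. In undifferentiated LF2 cells they held 874 and 1066, against 2385 and 2207.

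A gain of H3K4me3 was seen in a small number of bins. The bins had a median of 10 H3K4me3 reads after atRA (range 1 to 78) and 11 in EBs (1 to 60), against 8 (1 to 10) in the undifferentiated library whose upper limit the rule set. The median over all bins with 10 or fewer undifferentiated reads was 6 after atRA, 7 in EBs and 6 in undifferentiated cells. Around the lone bins, mean H3K4me3 at 5 to 15 kb was 0.545 RPM per kb after atRA, 0.559 in EBs and 0.538 in undifferentiated cells. The atRA and EB levels within the bins, 0.501 and 0.530, were thus close to those of their surroundings.

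By size, 83 of the 640 bins with at least 20 H3K4me3 reads in the pair of libraries were higher after atRA (13.0%), and 103 of 758 (13.6%) in EBs. Over all autosomal bins tested 2.33% were called higher after atRA and 2.57% in EBs. Over those with 10 or fewer undifferentiated reads, which is the nearer background, the shares were 6.18% and 6.96%. With 10 or fewer reads in undifferentiated cells, a bin that reached the minimum of 20 was higher by construction, and nothing is read from the direction. As shares of all bins, 4.67% of the 1776 were called higher after atRA and 5.80% in EBs, against 0.439% and 0.584% of the 191788 bins with 10 or fewer undifferentiated reads. Both states shared 32 such bins (1.80%), against 0.0605% of the bins with 10 or fewer undifferentiated reads. Of those 191788 bins, 13627 held the 20 reads needed for a call after atRA and 16101 in EBs, against 640 and 758 of the 1776. A bin below that minimum could not be called, so these shares of all bins also depend on how many were tested. Between atRA and EBs, which the rule did not use, 16 of 1032 bins (1.55%) had more H3K4me3 after atRA and 26 (2.52%) less, where 1.47% of all bins tested were called higher and 2.59% lower, so these shares were near the background. Scaling to low-coverage bins gave 24 higher and 18 lower.

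A count of 30 H3K4me3 reads, the level that defines the bins rich in both marks, was reached by 18 of the 1776 bins (1.01%) after atRA. Among all 191788 bins with 10 or fewer undifferentiated reads 36 (0.0188%) reached it. In EBs 9 of the 1776 reached it, of 21 among all bins with 10 or fewer. In the 18, H3K27me3 was lower after atRA than in undifferentiated cells in 14, with a median log2 ratio of -0.31, against 0.15 in the 1622 bins not called for H3K4me3. The wider set of 83 bins with H3K4me3 called higher after atRA had a median of 0.05, with 38 of 83 below 0. In EBs of the other lines, where H3K4me3 was not profiled, the same 18 had median log2 ratios of EBs over undifferentiated cells of -0.87 in LF2 and -0.58 in E14, against -0.53 and 0.04 in the 83 and -0.40 and 0.16 in the 1622. These differences were not tested, and the 18 had a median of 146 H3K27me3 reads in undifferentiated XT67E1 cells against 118 in the 1622.

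The largest gain was on chromosome 18 from 11050001 to 11060000, with 78 H3K4me3 reads after atRA, 60 in EBs and 5 in undifferentiated cells. Its H3K27me3 stayed high in XT67E1, at 208 reads after atRA, 208 in EBs and 194 in undifferentiated cells, so both marks were present in the same bin. In LF2 it had 75 H3K27me3 reads in EBs and 187 in undifferentiated cells, and in E14 176 and 243. A 2 kb window held 35 of the 78 reads after atRA, and the fullest 2 kb held 2 reads in undifferentiated cells.

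On chromosome 19 from 37770001 to 37780000, H3K4me3 was at 61 reads after atRA, 25 in EBs and 8 in undifferentiated cells, and 40 of the 61 lay in 2 kb. Its H3K27me3 was 142 reads after atRA, 217 in EBs and 195 in undifferentiated cells. On chromosome 15 from 101830001 to 101840000 it was at 52, 29 and 8 reads after atRA, in EBs and in undifferentiated cells, with H3K27me3 at 112, 118 and 141. This bin had 38 H3K27me3 reads in EBs and 117 in undifferentiated cells of LF2, and 45 in EBs and 75 in undifferentiated cells of E14. The highest H3K4me3 value in EBs that exceeded the atRA value was on chromosome 8 from 35860001 to 35870000: 16 reads after atRA, 39 in EBs and 9 in undifferentiated cells. There 28 of the 39 EB reads lay in 2 kb.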

How the data were processed

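The deposited files list read positions: per the values, each row is a 200 bp interval without strand or score, and no interval is repeated within a library. Coordinates are on mm9, per the submitters' processing notes. Aligner, read filters and the step that made libraries of a set equally deep were not given in the sources used here. ChIP used an H3K4me3 antibody from Diagenode and an H3K27me3 antibody from T. Jenuwein on sonicated chromatin read on Illumina Genome Analyzers, per the labels' protocols.

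Interval midpoints were counted in 10 kb bins and scaled to autosomal reads (RPM, reads per 1e6). Log2 ratios used a pseudocount of 1 read, which understates changes of bins with few reads. Comparisons of 2 libraries used the size rule given in the text, with no p-value, since each group has 1 library. EBs against undifferentiated cells in LF2 and E14 were fitted with limma 3.58.1 in R 4.3.3 (intensity trend, line as block, Benjamini-Hochberg adjustment over all bins tested), which was checked on simulated data. The labels do not say that cells of a line were cultured in parallel. The line pairs the libraries, because they come from the same cell line; their deviations from the condition means correlated at 0.178 over bins.

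Bins and lists were chosen with earlier results of these data known. Named bins are the 10 with most reads in undifferentiated XT67E1, the 5 longest runs, up to 5 highest and lowest called bins of a comparison, up to 10 with most H3K4me3 gained and the 5 with fewest reads in LF2 and E14, of which the text gives a part; the bins that fell in limma are the 5 largest. The pair of stretches described along their length was picked after its values were seen. Gene lists were not placed, because no mm9 annotation was used here, and no sequence is shown for the same reason. Alternatives tried were no read minimum, a pseudocount of 5, scaling to reads in bins at or below median coverage, leaving out chromosome 8, bins shifted by 5 kb, other read limits, a depth-scaled minimum for presence, runs with 1 bin between, and limma without block, with voom, with XT67E1 and with no minimum.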

Additional observations from a re-analysis of the deposited data

Results flagged for a closer look

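The median log2 ratio of EBs over undifferentiated cells over the 1776 bins was -0.41 in LF2 and 0.14 in E14, a difference of -0.55 (LF2 minus E14). It is listed because the medians lie on opposite sides of 0. The difference was not tested, since each line has 1 library per condition.

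In the run of 6 bins on chromosome 7 from 150560001 to 150620000, the log2 ratio of EBs over undifferentiated cells was 0.29 in XT67E1 and -0.39 in E14, a difference of 0.68. In the run of 5 bins from 150490001 to 150540000 on the same chromosome it was 0.38 in XT67E1 and -0.59 in E14, a difference of 0.97. Both are listed because the lines moved in opposite directions. Neither difference was tested, and the undifferentiated XT67E1 library chose the bins.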

How the results depend on the processing

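Of 245 recomputed values, 177 stayed near the reported one (medians within 0.1 on the log2 scale, counts and shares within 1.5 times), 66 moved and 2 reversed. Calls by size under the alternatives were counted for the bins of the rule alone, with no background over all autosomal bins. The reversed values were the median H3K4me3 log2 ratio of atRA over EBs, 0.0019 without chromosome 8 and with 5 or fewer H3K4me3 reads. The cause was not tested except where the alternative holds fewer bins.

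The number of bins was 361 at 150 or more H3K27me3 reads and 217 at 5 or fewer H3K4me3 reads. Shifting bins by 5 kb gave 1844, of which 1051 overlap one of the 1776. Allowing 1 bin between members made the longest run hold 12. In limma 0 bins fell with no replicate block and 11 with no read minimum. Leaving out a line leaves no residual degree of freedom, so LF2 and E14 are given as values without a test.

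Scaling to low-coverage bins moved the share of bins called higher or lower. The share was 0.676% higher and 0.394% lower for atRA over undifferentiated XT67E1, 2.76% lower for EBs over undifferentiated XT67E1, and 6.02% higher and 0.113% lower for atRA over EBs. It was 0% higher and 19.9% lower for EBs over undifferentiated LF2, 4.67% higher for EBs over undifferentiated E14, and 33.1% higher and 0.113% lower for LF2 over E14 undifferentiated. For H3K4me3 atRA over EBs it was 2.33% higher.

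With a pseudocount of 5 reads the shares were 1.01% higher for atRA over EBs, 0.0563% higher in LF2 EBs, 2.82% higher for LF2 over E14 EBs, and 1.26% lower for H3K4me3 atRA over EBs. With no read minimum, H3K4me3 was higher in 5.57% after atRA and 6.98% in EBs. Without chromosome 8, 0% were higher in LF2 EBs and 1.63% for LF2 over E14 EBs. Bins shifted by 5 kb gave 0.0542% higher for atRA over undifferentiated cells and 0.217% lower for LF2 over E14 undifferentiated.

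At 150 or more H3K27me3 reads, the shares were 0% higher and 1.66% lower for atRA over undifferentiated cells, 0.554% lower for EBs over undifferentiated cells, and 0.277% higher and 1.94% lower for atRA over EBs. They were 0% higher in LF2 EBs, 5.54% higher for LF2 over E14 undifferentiated, 2.22% higher and 13.9% lower for LF2 over E14 EBs, and 19.8% higher for H3K4me3 after atRA. The median log2 ratio was 0.26 for atRA and -0.0044 for EBs over undifferentiated XT67E1 cells, 0.29 for EBs over undifferentiated E14 cells, and 0.03 undifferentiated and -0.60 in EBs for LF2 over E14. Presence was 98.1% in XT67E1 EBs, 93.6% in EBs and 97.8% in undifferentiated cells of LF2, and 87.5% in EBs and 93.1% in undifferentiated cells of E14.

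At 5 or fewer H3K4me3 reads, 0% were higher for atRA over undifferentiated cells, 0% in LF2 EBs, 10.6% higher and 1.38% lower for LF2 over E14 undifferentiated, and 1.38% higher for LF2 over E14 EBs. H3K4me3 was called higher in 100% of those tested, 19 after atRA and 15 in EBs, as the minimum of 20 reads sets.

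Equal totals hide any change of the overall signal, and 2252395 reads per H3K4me3 library leave a median of 7 reads per bin, so small gains were not detectable at this depth.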
